A study of Mus musculus with 10 samples.

Results

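Pls1, Pls3 and Lcp1, which encode the plastins, and Fscn1, Actn1, Actn2, Actn4 and Espn, which encode other proteins that tie actin filaments into bundles, were followed in dorsal root ganglia (DRGs) that lack the kinase Lkb1. They are 8 of the 19938 genes tested. The family was chosen by the lower level of Pls1 in Lkb1 KO DRGs in earlier results of these data, and the other 7 genes were added as its relatives in function. The values of Pls1 are therefore given as a description, with no test.

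Levels were measured on 10 expression arrays, 5 of Lkb1 KO and 5 of WT mouse embryos at E13.5. In Lkb1 KO embryos a floxed Lkb1 gene (Stk11) had been deleted by Cre recombinase driven from Wnt1, which acts in the neural crest, the source of DRG neurons and glia, and also in the midbrain and dorsal neural tube. The WT embryos were littermates on the same mixed background, and whether they carried the floxed allele or Cre was not given in the sources used here. Each sample was RNA from the whole DRGs of 2 pooled embryos, so non-neuronal cells that keep Lkb1 were included, and fewer cells of a type and less RNA per cell cannot be told apart. The arrays asked which genes differ in expression once Lkb1 is lost. All levels are log2 values, on which a difference of 1 is a 2-fold change.

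Actin bundlers hold filaments side by side in the cores of microvilli, stereocilia and filopodia, the finger-like protrusions with which a growth cone probes its path. Plastins, also called fimbrins, carry tandem actin-binding domains and calcium-binding EF hands in a single chain, fascin packs filaments tightly in filopodia, and alpha-actinins bridge them as antiparallel dimers. Pls1 protein is best known from the brush border of the gut and the stereocilia of inner ear hair cells, Pls3 from many solid tissues, and Lcp1 from leukocytes.

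Pls1 (probe set 10595768, chromosome 9) had a lower level in Lkb1 KO DRGs. Its values were 6.94, 6.58, 6.63, 6.36 and 6.63 in Lkb1 KO replicates 1 to 5, against 7.50, 7.32, 7.52, 7.33 and 7.36 in WT replicates 1 to 5. Every Lkb1 KO sample lay below every WT sample, with replicate 1 the nearest to WT and replicate 4 the farthest from it. The means were 6.63 ± 0.21 in Lkb1 KO and 7.41 ± 0.10 in WT (SD, n = 5 each), a difference of -0.78, so that the WT level was 1.71-fold that of Lkb1 KO. Of all genes tested, 13 had a lower difference. As the groups did not overlap, Lkb1 KO was by necessity the lower sample in each of the 5 replicate numbers, by differences between -0.56 and -0.97. Leaving out 1 sample at a time moved the mean difference between -0.85, without Lkb1 KO replicate 1, and -0.71, without Lkb1 KO replicate 4.

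Markers of several cell types also differed between the genotypes, some lower and some higher in Lkb1 KO. The mean level of 16 sensory neuron genes ran from 10.32 to 10.43 in Lkb1 KO and from 10.48 to 10.61 in WT. Of these genes 4 were lower (Isl1, Isl2, Elavl4 and Prrxl1) and 0 were higher at an adjusted p under 0.05 in limma, a linear model fitted to all genes. Of 7 Schwann cell and satellite glia genes 1, Cdh19, was lower and 0 were higher. Their list mean ran from 9.27 to 9.43 in Lkb1 KO and from 9.37 to 9.49 in WT. The differences of these glial genes went both ways, from -0.50 for Cdh19 to 0.073 for Sox10, with a median of -0.0012. Fibroblast and mesenchyme genes were higher in 8 of 9 cases, with a list mean of 9.21 to 9.30 in Lkb1 KO and 8.86 to 8.98 in WT. Genes of dividing cells were higher in 7 of 7, at 9.02 to 9.34 in Lkb1 KO and 8.62 to 8.85 in WT. The part of cell composition in the values of Pls1 was not tested. Stk11 itself ran from 7.68 to 7.94 in Lkb1 KO and from 8.51 to 9.08 in WT, but whether the probe set covers the deleted exons was not given in the sources used here, so this is no direct check of the deletion. Lkb1 KO replicates 2 and 5 had little signal for the Y-linked gene Eif2s3y (4.66 and 4.90), while the other 8 samples had 9.75 to 10.70, so the sexes were not evenly spread. With the Y-linked level as a covariate Pls1 differed by -0.75, and without those 2 samples by -0.76. The X-linked gene Xist, a marker of female cells, was at 4.89 in Lkb1 KO replicate 3. In WT replicates 1, 3 and 5 it was at 5.06, 4.48 and 5.46, and in all other samples at 11.70 to 12.37. Samples with low Xist thus stay unevenly spread without Lkb1 KO replicates 2 and 5, so these settings do not fully account for sex.

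**Figure D1:**
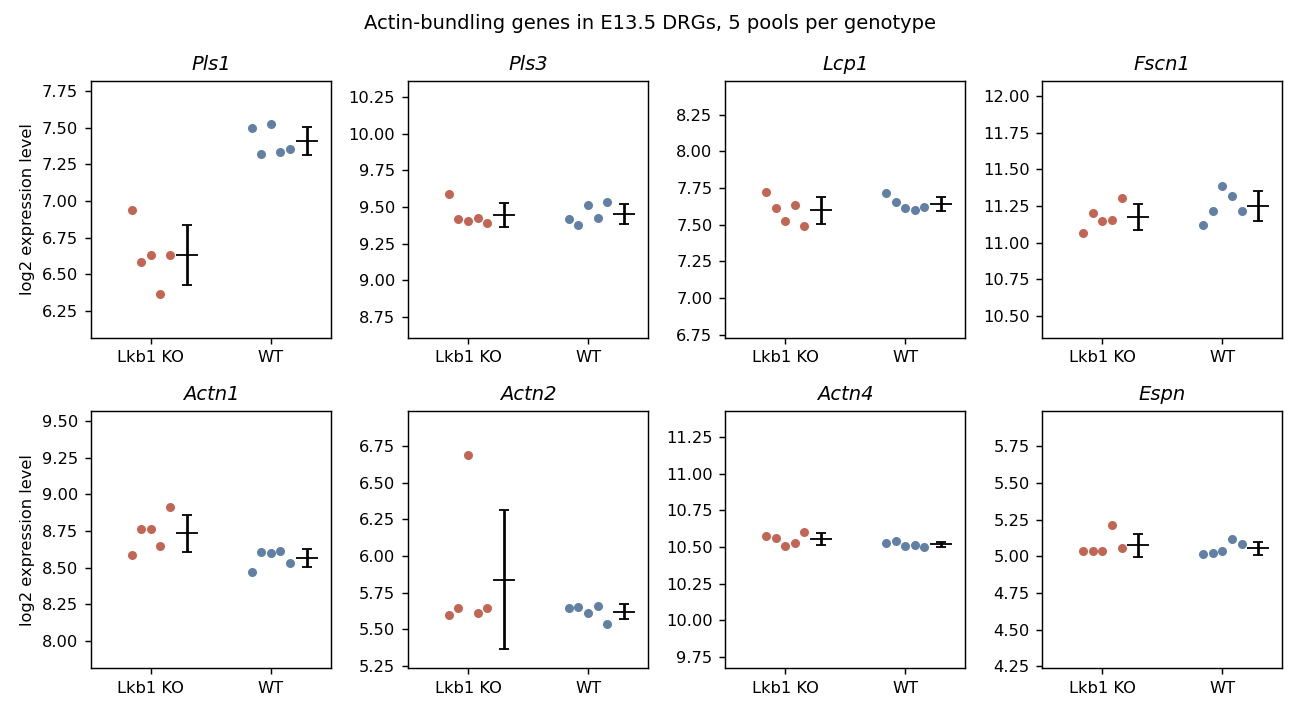
Log2 expression level (y axis, the same span in each panel) of the 8 actin-bundling genes in Lkb1 KO and WT samples (points, replicates 1 to 5 from left to right), with the mean and SD beside them. The groups are apart for Pls1, at 6.63 and 7.41, and overlap for the other 7 genes, and Actn2 has 1 Lkb1 KO sample at 6.69.

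The other plastins gave no such difference. Pls3 (probe set 10605437, chromosome X) was at 9.59, 9.42, 9.41, 9.43 and 9.39 in Lkb1 KO and at 9.42, 9.38, 9.51, 9.42 and 9.53 in WT. The groups overlapped over most of their range, and the highest value was that of Lkb1 KO replicate 1. Means of 9.45 ± 0.08 in Lkb1 KO and 9.45 ± 0.07 in WT (SD, n = 5 each) gave a difference of -0.0069, with a 95% confidence interval from -0.11 to 0.097 (adjusted p = 0.969 from limma). The difference of Pls1, -0.78, lies outside that interval. As the family was chosen by that value, this is a description and not a test between the genes. It holds for RNA of whole DRGs and not for any single cell type. Lcp1 (probe set 10416437, chromosome 14) was at 7.72, 7.62, 7.53, 7.63 and 7.49 in Lkb1 KO and at 7.72, 7.66, 7.61, 7.60 and 7.62 in WT. These ranges overlapped as well, with the lowest values in Lkb1 KO replicates 3 and 5. The difference of Lcp1 was -0.044 (95% confidence interval -0.15 to 0.059, adjusted p = 0.751 from limma). None of 10 leukocyte genes passed the test in either direction, and their list mean ran from 6.60 to 6.71 in Lkb1 KO and from 6.58 to 6.69 in WT.

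The DNA just upstream of the plastin genes is shown because 1 of these genes was lower in Lkb1 KO DRGs and the other two were not. The stretches hold the 250 bases before the first listed start of each gene, in the direction of transcription, from RefSeq on GRCm38.p6, at chr9:95845280-95845529 (minus strand) for Pls1, chrX:75875183-75875432 (minus strand) for Pls3 and chr14:75130873-75131122 (plus strand) for Lcp1. Capitals mark matches, on either strand, to the motifs that were searched. These were the cAMP response element TGACGTCA, its half-site TGACG, which every full element also contains, the TEAD motif GGAATG and the CArG box of serum response factor.
Pls1: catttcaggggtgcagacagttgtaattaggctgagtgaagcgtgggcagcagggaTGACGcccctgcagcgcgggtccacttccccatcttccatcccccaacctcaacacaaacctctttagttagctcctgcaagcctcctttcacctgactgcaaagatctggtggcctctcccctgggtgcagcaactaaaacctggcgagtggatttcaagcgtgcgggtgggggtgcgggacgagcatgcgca
Pls3: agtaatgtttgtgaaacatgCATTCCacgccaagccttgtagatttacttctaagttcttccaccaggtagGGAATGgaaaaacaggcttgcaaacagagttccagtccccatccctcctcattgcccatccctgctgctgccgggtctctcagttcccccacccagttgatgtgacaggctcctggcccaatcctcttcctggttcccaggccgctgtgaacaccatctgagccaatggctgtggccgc
Lcp1: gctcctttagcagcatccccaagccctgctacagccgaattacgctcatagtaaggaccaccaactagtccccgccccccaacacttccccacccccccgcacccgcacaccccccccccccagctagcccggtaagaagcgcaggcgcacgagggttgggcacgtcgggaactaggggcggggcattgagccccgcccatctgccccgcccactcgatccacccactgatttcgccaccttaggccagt
The Pls1 stretch held 1 half-site, the Pls3 stretch held 2 TEAD motifs, and the Lcp1 stretch held none of the motifs. Across the 32851 promoters of this length the half-site was found in 17.8%, the TEAD motif in 12.6%, the full element in 1.55% and the CArG box in 1.47%. Among the 13 promoters of the 8 genes, the full element was in 1, that of Fscn1, the half-site in 4, the TEAD motif in 5 and the CArG box in 0. The 5 with a TEAD motif belong to 3 genes. Of them 3 are promoters of Pls3, of which 2 overlap and share their matches, so they are not separate cases. The others are a second promoter of Lcp1, whose stretch is not shown, and the promoter of Actn4. A match is a run of letters and not evidence of binding.

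Across all genes, limma called 3.87% at an adjusted p under 0.05, with 2.49% higher and 1.38% lower in Lkb1 KO. In 5.34% of genes the groups did not overlap. Among the 7 bundling genes besides Pls1, 0 were called, and 1, Actn1, had an unadjusted p under 0.05. The median difference of these 7 was 0.021, and that of all genes was -0.0017. None of the 7 was called by the per-gene analysis of variance or under any other setting tried.

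Among the alpha-actinins, which link actin at adhesions and along stress fibres (Actn1 and Actn4) or at the Z-disc of striated muscle (Actn2), Actn1 was the one with an unadjusted p under 0.05. Actn1 (probe set 10401244, chromosome 12) was at 8.59, 8.76, 8.76, 8.65 and 8.91 in Lkb1 KO and at 8.47, 8.61, 8.60, 8.61 and 8.54 in WT. Of the 5 Lkb1 KO samples 4 lay above every WT sample, and only replicate 1 lay within the WT range. The means were 8.73 ± 0.12 in Lkb1 KO and 8.57 ± 0.06 in WT (SD, n = 5 each), a difference of 0.17 with a 95% confidence interval from 0.044 to 0.29. This did not pass the correction over all genes (adjusted p = 0.155 from limma, and 0.083 with replicate number as a block). An exact two-sided permutation test of this gene alone, 1 of 7 such tests, gave p = 0.0317, where 0.00794 is the smallest possible. Lkb1 KO was the higher sample in 5 of 5 replicate numbers. As 4 Lkb1 KO samples lay above every WT sample, only replicate number 1 could have gone the other way. The difference was 0.096 with the Y-linked covariate (adjusted p = 0.49 from limma) and 0.10 without Lkb1 KO replicates 2 and 5.

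Actn4 (probe set 10561527, chromosome 7) varied little, at 10.58, 10.56, 10.51, 10.53 and 10.60 in Lkb1 KO and at 10.53, 10.54, 10.51, 10.52 and 10.50 in WT. The groups overlapped, and the difference was 0.035 (95% confidence interval -0.036 to 0.11, adjusted p = 0.702 from limma). Actn2 (probe set 10407742, chromosome 13) was at 5.60, 5.65, 6.69, 5.61 and 5.65 in Lkb1 KO and at 5.65, 5.65, 5.61, 5.66 and 5.54 in WT. A single sample, Lkb1 KO replicate 3, stood apart, and the other 9 lay together. The difference of 0.22 (95% confidence interval -0.16 to 0.59, adjusted p = 0.641 from limma) became 0.0058 without that sample and 0.40 with the Y-linked covariate.

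Skeletal muscle genes were high in the same sample. Of 11 such markers, 10 had their highest value in Lkb1 KO replicate 3. The list mean was 5.83 there, between 5.20 and 5.29 in the other Lkb1 KO samples and between 5.16 and 5.28 in WT. Ttn, which encodes the giant sarcomere protein titin, was at 5.98 in Lkb1 KO replicate 3, between 4.73 and 4.81 in the other Lkb1 KO samples and between 4.66 and 4.79 in WT. Myh3, an embryonic muscle myosin gene, was at 6.13 in that sample, between 4.59 and 4.64 in the other Lkb1 KO samples and between 4.51 and 4.66 in WT. Actc1, the cardiac actin gene that embryonic skeletal muscle also uses, was at 10.41 there, against 7.11 to 7.76 in the other Lkb1 KO samples and 6.78 to 7.33 in WT. The part of muscle RNA in the Actn2 value of this sample was not tested.

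**Figure D2:**
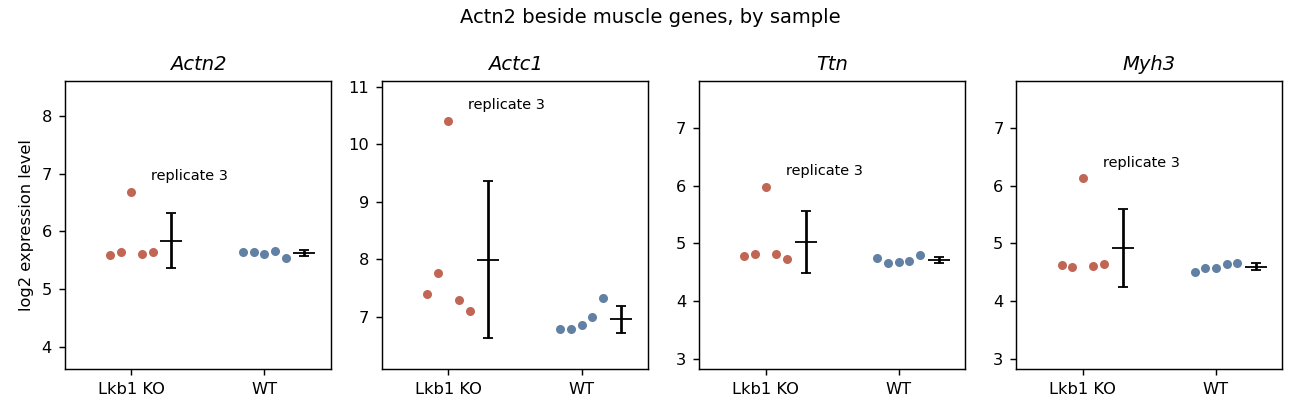
Log2 expression level (y axis, the same span in each panel) of Actn2 and of 3 muscle genes, Actc1, Ttn and Myh3, in Lkb1 KO and WT samples (points, replicates 1 to 5 from left to right), with the mean and SD beside them. Lkb1 KO replicate 3 is the highest sample in all 4 panels, at 6.69 for Actn2 and 10.41 for Actc1.

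Fscn1 (probe set 10527158, chromosome 5), whose product fascin bundles the filaments of growth cone filopodia, was at 11.07, 11.20, 11.15, 11.16 and 11.31 in Lkb1 KO and at 11.12, 11.22, 11.39, 11.32 and 11.21 in WT. The groups overlapped, with Lkb1 KO replicate 1 lowest and WT replicate 3 highest. The difference was -0.076 (95% confidence interval -0.20 to 0.046, adjusted p = 0.608 from limma), and it was -0.13 with the Y-linked covariate, -0.049 without Lkb1 KO replicate 1 and -0.043 without WT replicate 3. Espn (probe set 10518882, chromosome 4), whose product espin lengthens and stiffens the bundles of stereocilia, was dim on these arrays, at 5.03, 5.04, 5.03, 5.21 and 5.06 in Lkb1 KO and at 5.01, 5.02, 5.03, 5.12 and 5.08 in WT. Replicate 4 was the highest in both genotypes, and the difference was 0.021 (95% confidence interval -0.074 to 0.12, adjusted p = 0.888 from limma). No detection call was used, so a change of a dim gene such as Espn or Actn2 may be compressed.

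**Figure D3:**
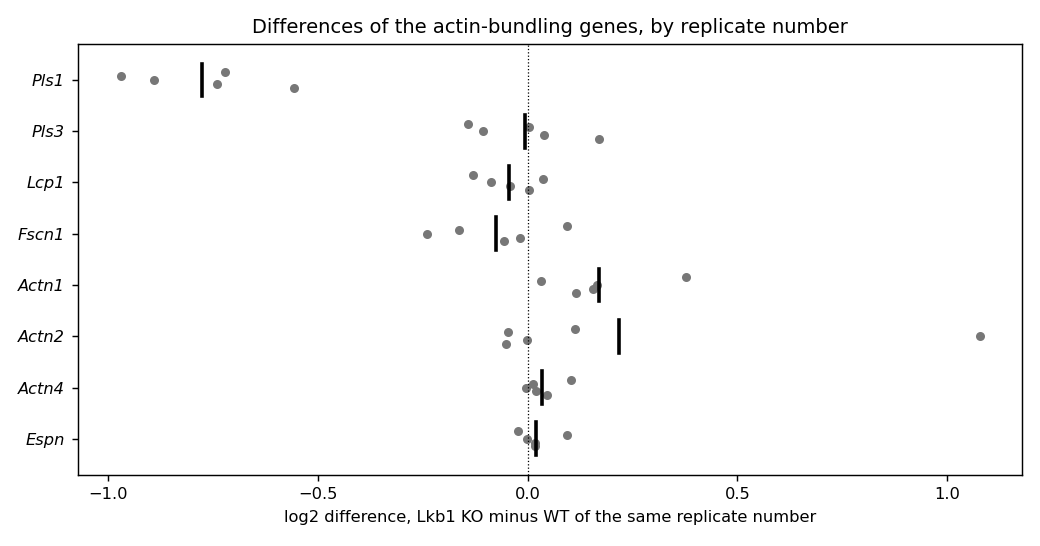
Log2 difference (x axis, Lkb1 KO minus the WT sample of the same replicate number) for the 8 actin-bundling genes, with 1 point for each of the 5 replicate numbers and a bar at the mean. All points of Pls1, whose groups do not overlap, lie left of 0 and all points of Actn1 right of it, while those of the other genes fall on both sides.

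After each genotype's mean was taken off, Pearson's r with Pls1 over the 10 arrays was 0.62 for Pls3, 0.35 for Lcp1, 0.33 for Actn4, -0.0095 for Actn2, -0.21 for Fscn1, -0.26 for Actn1 and -0.71 for Espn. Spearman's rho was lower for the plastins, at 0.28 for Pls3 and 0.10 for Lcp1, and it was 0.27 for Actn4 and -0.66 for Espn. Without Lkb1 KO replicates 1 and 4, the samples farthest out for Pls1, r was 0.31 for Pls3 and 0.14 for Lcp1. It was then -0.073 for Actn4 and -0.40 for Espn. The points share arrays and their processing, and these values are a description. Among the brighter part of the genes, 9968 in number, the most similar to Pls1 in this way were Slc35b3, a Golgi nucleotide sulfate transporter gene (r = 0.973, Spearman's rho = 0.976), and Rgs19, a regulator of G protein signalling (r = 0.972, rho = 0.939). Sgcb, which encodes a sarcoglycan (r = 0.967), Acbd5, a peroxisomal gene (r = 0.966), and Atp6ap2, the prorenin receptor gene (r = 0.959), followed. Without those 2 samples r for these 5 genes lay between 0.845 and 0.922. As the highest of 9968 genes over these same arrays, they were bound to have a high r. None of these 5 genes differed between genotypes as Pls1 did, with differences between -0.11 and -0.012 and no call from limma.

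The wider actin machinery was examined through 124 other genes of 6 groups. Of these, 6 were higher and 2 were lower in Lkb1 KO, or 6.45% called against 3.87% of all genes, and their median difference was -0.0044. The lists were chosen with earlier results of these data known, so the 2 shares are a description and not a test. The number called ran from 5, as without WT replicate 1, to 14 with the replicate block. The replicate block called 9 higher and 5 lower. Fibroblast and dividing-cell markers were also higher in Lkb1 KO and sensory neuron markers lower. The part of cell composition in the differences of these actin genes was not tested.

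Of 33 other bundlers and crosslinkers, 3 were higher and 0 were lower, with a median of 0.0064. With replicate number as a block 1 of them, Avil, was lower (-0.26), a villin relative that is also on the sensory neuron list. Eps8, which caps and bundles filaments in stereocilia and filopodia, was at 7.99 ± 0.17 in Lkb1 KO and 7.26 ± 0.23 in WT (SD, n = 5 each), with 7.85 as the lowest Lkb1 KO value and 7.60 as the highest WT value. The groups did not overlap, and Eps8 rose by 0.73 (standard error 0.10, adjusted p = 0.00166 from limma). Flnc, a filamin gene, was at 7.72 ± 0.07 in Lkb1 KO and 7.42 ± 0.05 in WT (SD, n = 5 each), a rise of 0.30 (adjusted p = 0.00172 from limma). Cnn2, a calponin gene, rose by 0.21 (adjusted p = 0.0262 from limma). The call of Cnn2 was lost without Lkb1 KO replicate 3 or without WT replicate 1, 3 or 5, with an adjusted p of 0.0671, 0.0656, 0.0739 and 0.0521 in that order. It was also lost in the per-gene analysis of variance (0.0700), with the Y-linked covariate (0.0530) and without Lkb1 KO replicates 2 and 5 (0.0504). Lima1, which crosslinks stress fibres, had a difference of 0.12 (adjusted p = 0.178 from limma).

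Genes that start or lengthen filaments were called in 2 of 30 cases, both higher, and the group's median was -0.021. Arpc1b, a subunit of the Arp2/3 complex, which nucleates branched actin, was at 10.95 ± 0.04 in Lkb1 KO and 10.66 ± 0.05 in WT (SD, n = 5 each), a rise of 0.30 (adjusted p = 8.17e-04 from limma). Diaph3, a formin gene, rose by 0.28 (adjusted p = 0.0235 from limma), and differed by 0.18 with the Y-linked covariate (adjusted p = 0.120). Its call was also lost in the per-gene analysis of variance (0.0934), without Lkb1 KO replicates 2 and 5 (0.0917) and without Lkb1 KO replicate 2 or without WT replicate 1, 2, 3 or 4 (adjusted p from 0.0525 to 0.0676). Wasf1 of the WAVE complex had a difference of -0.14 (adjusted p = 0.109 from limma), although its groups did not overlap, and the formin gene Fmn1 one of -0.16 (adjusted p = 0.178 from limma).

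Among 27 genes that cap or sever filaments or bind actin monomers, 1 was higher and 2 were lower, with a median of -0.020. Capg, a capping protein of the gelsolin family, ranged from 6.94 to 7.14 with a median of 7.01 in Lkb1 KO and from 5.96 to 6.47 with a median of 6.37 in WT. The ranges were apart, and Capg rose by 0.72 (standard error 0.087, adjusted p = 4.90e-04 from limma). Tmod1, which caps pointed ends, fell by 0.34 (adjusted p = 0.00233 from limma), with 7.23 ± 0.09 in Lkb1 KO and 7.57 ± 0.08 in WT (SD, n = 5 each). A second, dim probe set of Tmod1 had a difference of -0.026, and the mean of both was not called (-0.18, adjusted p = 0.0525). Limk2, a kinase that inhibits the severing protein cofilin, fell by 0.15 (adjusted p = 0.0440 from limma). That call was kept without Lkb1 KO replicate 1 and without WT replicate 5 and lost without any other single sample (adjusted p from 0.0874 to 0.116). It was also lost with the Y-linked covariate (0.151), without Lkb1 KO replicates 2 and 5 (0.183), with the intensity trend (0.0527) and with the replicate block (0.0504). Twf2, a twinfilin gene, had a difference of 0.10 (adjusted p = 0.224 from limma).

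**Figure D4:**
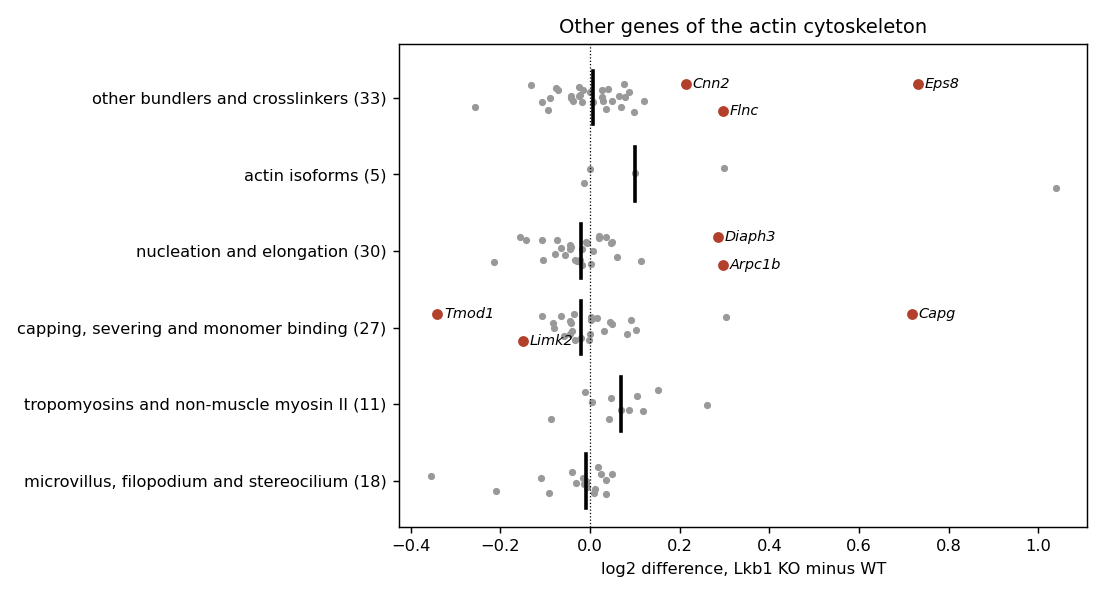
Log2 difference (x axis, Lkb1 KO minus WT) of 124 other actin genes in 6 groups (y axis, with the number of genes), with genes called by limma in red and named, all others in grey, and a bar at each group's median. The 6 higher genes run from 0.21 for Cnn2 to 0.73 for Eps8, the 2 lower ones are Tmod1 and Limk2, and the grey point near 1.04 is Actc1.

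No gene of the remaining groups was called. Of 6 actin genes listed, 5 were measured. Among these, Actb, a cytoplasmic actin, had a difference of -0.013 and Actc1 one of 1.04, which was 0.44 without Lkb1 KO replicate 3. Acta2, the smooth muscle actin gene, had a difference of 0.30 (adjusted p = 0.368 from limma), or 0.15 without Lkb1 KO replicate 3. Acta1, the skeletal one, had a difference of 0.10 (adjusted p = 0.828 from limma), or -0.065 without that sample. Of 11 tropomyosin and non-muscle myosin II genes, 0 passed (3 at an unadjusted p under 0.05), and the median was 0.069. The differences were 0.15 for the tropomyosin gene Tpm4 (adjusted p = 0.0805 from limma), 0.26 for Myl9, 0.087 for Myh10 and -0.087 for Myl12b. Of 18 genes of microvilli, filopodia and stereocilia, the structures in which Pls1 protein is best known, 0 passed (1 at an unadjusted p under 0.05), and the median was -0.0087. Myo6, a myosin that walks to the pointed end, had a difference of -0.21 (adjusted p = 0.0816 from limma), Myo1a one of -0.11, Myo1c one of -0.091 and the tip-link gene Pcdh15 one of -0.36 (adjusted p = 0.569 from limma), with -0.038 in a second, dim probe set. Pcdh15 was at -0.18 without Lkb1 KO replicate 1, at -0.57 without Lkb1 KO replicate 5 and at -0.69 with the Y-linked covariate. That covariate also moved Actc1 to 1.60, Acta1 to 0.26, Myh10 to 0.044, Myo1a to -0.071 and Myo1c to -0.16. Genes added by the replicate block were Tpm4, Myl9, Myo6, Pcdh15, Fmn1, Avil and Cap2, of which the last (0.30) also passed with the Y-linked covariate, Tpm4 with the intensity trend or without WT replicate 5, and Myo6 without Lkb1 KO replicate 5. Avil and Cap2 were named after their values were seen.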

How the data were processed

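RNA (250 ng in total) from the DRGs of 10 pools of 2 embryos, 5 Lkb1 KO and 5 WT, was labelled with biotin and hybridised to 1-colour arrays. The deposited values are log2 levels that the authors made by RMA, with Partek 6.6 also named in the submitters' processing notes. The genome build was not given in the sources used here, and array medians ran from 6.50 to 6.57. Of 35556 probe sets, 21789 had 1 gene in GEO's platform annotation, 1621 had several, and 12146 were unnamed here. Symbols were updated through RefSeq, and the probe set with the highest mean stood for each of 19938 genes. The test between genotypes was limma's moderated one (version 3.58.1, under R 4.3.3). Its p-values were adjusted over all genes by Benjamini-Hochberg, and a gene was called under 0.05. The labels call the samples biological replicates. Same-numbered samples deviated from their group means together (correlations of 0.21 to 0.48, and -0.48 to 0.31 for other pairs), so the numbers were treated as possible pairs. Lkb1 KO replicate 4 with WT replicate 5, at 0.31, lay above some same-numbered pairs. The methods name no pairing, so the tests given are unpaired and the replicate block was an alternative. Alternatives also covered scaling, the variance model, array weights, dim genes, probe sets, sex and single samples. The planned Y-linked covariate used Eif2s3y and Uty, as Ddx3y was not analysed here. The number of arrays limits the precision. The members and gene lists were chosen with earlier results of these data known. Named were the 8 members, up to 4 genes with the smallest unadjusted p per other actin list, and the 5 genes most like Pls1. Marker lists not described above were pericytes and smooth muscle (0 of 8 called), endothelium (1 of 8, Cldn5, higher) and spinal cord (1 of 8, Pax6, higher).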

Additional observations from a re-analysis of the deposited data

Results flagged for a closer look

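A single sample far from the other 4 of its group, by Dixon's criterion for 5 values, was found in 5 of the 64 groups examined, where chance is expected to pick out about 5% of groups. For Pls3 it was Lkb1 KO replicate 1, at 9.59 against 9.39 to 9.43 in the other Lkb1 KO samples. For Actn2 it was Lkb1 KO replicate 3, at 6.69 against 5.60 to 5.65, and for Actc1 it was the same sample, at 10.41 against 7.11 to 7.76. For Espn it was Lkb1 KO replicate 4, at 5.21 against 5.03 to 5.06. For Capg it was WT replicate 1, at 5.96 against 6.33 to 6.47 in the other WT samples.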

How the results depend on the processing

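Pls1 stayed lower in Lkb1 KO under all 20 alternative settings, between -0.85 and -0.71. Its groups did not overlap, so leaving out samples could not turn its sign. Among the other 7 bundling genes 0 were called under any setting, the replicate block included. Over all 8 genes 149 of 159 recomputed differences kept their sign. The analysis of variance, intensity trend, dim-gene filter, mean of probe sets and replicate block left the differences of these genes unchanged. Their sign could not turn there. The sign turned for Pls3 with cyclic loess (0.014), with the Y-linked covariate (0.025) and without Lkb1 KO replicates 2 and 5 (0.021), and its range with 1 sample left out was -0.043 to 0.013. For Espn it turned with array weights (-0.0017), and that range was -0.014 to 0.037. Espn has no value with the dimmest 30% of genes left out. With 1 sample left out Acta1 ran from -0.065 (without Lkb1 KO replicate 3) to 0.18 and Actb from -0.021 to 6.80e-04 (without Lkb1 KO replicate 1). The lower actin genes, 2 in the main setting, numbered 5 with the replicate block and 1 with the intensity trend, with the mean of probe sets, with the Y-linked covariate and without Lkb1 KO replicates 2 and 5, and from 1 to 2 with 1 sample left out. Of all genes, 496 were higher and 275 lower. The analysis of variance gave 260 higher and 127 lower, the Y-linked covariate 287 higher, the samples without Lkb1 KO replicates 2 and 5 gave 288 higher and 171 lower, and the replicate block gave 715 higher and 565 lower. With 1 sample left out the counts ran from 333 to 487 higher and from 146 to 347 lower. The causes were not tested. Eps8, Flnc, Arpc1b and Capg were called under every setting. The arrays bound a change of Pls3 to within -0.11 to 0.097, while the interval of Actn2, from -0.16 to 0.59, is wide. Values near the dim end, such as those of Espn, have no detection call behind them.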
